A study of Saccharomyces cerevisiae with 219 samples.

Results

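The third minute of menadione exposure, sampled every 10 s from 130 to 180 s, was compared with the first minute, sampled every 10 s from 10 to 60 s. Each minute held 6 arrays, so 12 of the 219 arrays of the series entered the comparison. The arrays were chosen by the times in their labels and not by their values. All 12 arrays carried RNA of Saccharomyces cerevisiae grown for 7 days in YPD+A to stationary phase and then given 50 µM menadione, without a carbon source; the methods give S288c as the wild-type strain. The second minute (6 arrays, 70 to 120 s) and a single array at 300 s were used for description. No array of unexposed cells was used, so every difference is between 2 periods of exposure, and a change that was complete before 10 s could not be seen. One array was available per time, and the successive times of a minute stood in for replicates. The labels do not say that they came from separate cultures, so the p-values measure the spread between these arrays.

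Yeast in stationary phase is not dividing, has low rates of transcription and translation, and keeps many messenger RNAs in protein complexes. Menadione is a quinone that cycles between oxidized and reduced forms in the cell, which yields superoxide and peroxide and consumes NADPH and glutathione. The known defence of yeast includes superoxide dismutases, the thioredoxin and glutathione systems, catalase and the transcription factor Yap1. Each value below is a log2 ratio of sample RNA (Cy5) to a pool of equal parts of RNA from stationary and exponential cells (Cy3), which served as reference on every array, so 0 is the level of the mixed reference and 1 unit is a 2-fold difference.

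In the third minute nearly every messenger RNA read higher against the reference than in the first minute. Of the 4462 genes tested, 4262 were higher (95.5%) and 200 lower (4.48%) by sign alone. At an adjusted p under 0.05 (limma, Benjamini-Hochberg), 2488 genes rose, which is 55.8% of those tested, and 1 gene fell, which is 0.0224%. The median difference was 0.66 log2 units, or 1.58-fold, and the middle of the distribution was narrow, with quartiles of 0.48 and 0.85. Of the 2488 genes, 2014 rose at least 1.5-fold (45.1% of those tested) and 432 at least 2-fold (9.68%). Among the 3762 genes with values in all 12 arrays, 1103 (29.3%) had all 6 values of the third minute above all 6 of the first minute, and 0 had the opposite order.

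When the median of each array was set to 0, no gene passed the test. The smallest adjusted p was 0.618, and 326 genes (7.31%) had an unadjusted p under 0.05, of which 113 (2.53%) were higher and 213 (4.77%) lower in the third minute. Of genes with complete values, 6 (0.159%) had all values of the third minute above those of the first minute and 17 (0.452%) had all below. With the arrays centred in this way, the 95% interval of the difference lay within 2-fold in either direction for 2941 genes (65.9%) and within 1.5-fold for 1631 genes (36.6%). In the median gene that interval reached 0.51 log2 units to either side of the difference. For the remaining genes the interval reached past 2-fold on at least one side. Centring takes away any change that most messenger RNAs share, so a rise of most messenger RNAs and a shift of the arrays' scale cannot be told apart by it.

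**Figure D1:**
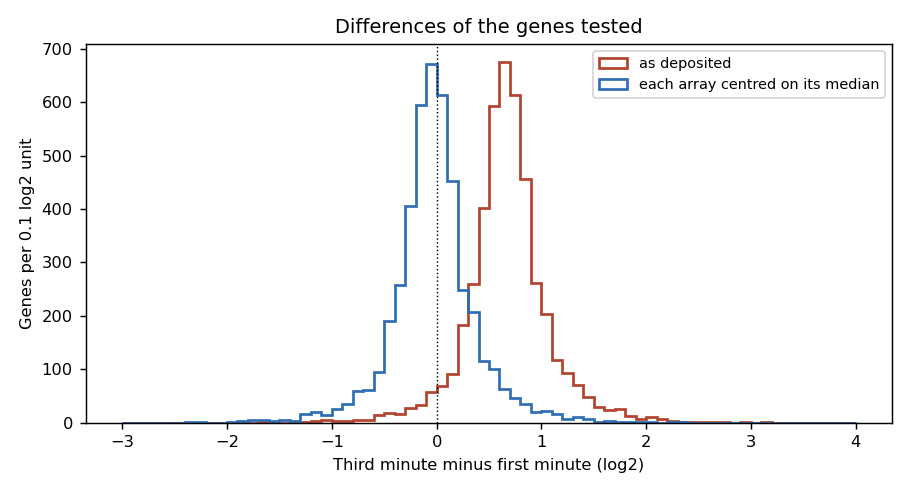
Number of genes (y axis) by their difference, the third minute minus the first minute, in log2 units (x axis), for the values as deposited and after the median of each array was set to 0. The 2 curves have nearly the same shape, with medians of 0.66 and -0.04.

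The shift was visible in whole arrays. The median log2 ratio of the tested genes averaged 2.27 ± 0.11 in the third minute and 1.57 ± 0.18 in the first minute (SD, n = 6 each). The third minute arrays ranged from 2.14 to 2.41 and the first minute arrays from 1.32 to 1.78, so the minutes did not overlap. The difference was 0.70 (exact two-sided permutation test, p = 0.00216, the smallest p that 6 against 6 arrays allow; adjusted over 3 comparisons of minutes, p = 0.00325). The second minute averaged 1.94 ± 0.15 (SD, n = 6), between 1.78 and 2.21. It lay 0.37 above the first minute (exact permutation p = 0.00216, adjusted p = 0.00325), and the third minute lay 0.33 above the second (exact permutation p = 0.00649, adjusted p = 0.00649). The single array at 300 s had a median of 2.11, just under the range of the third minute.

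**Figure D2:**
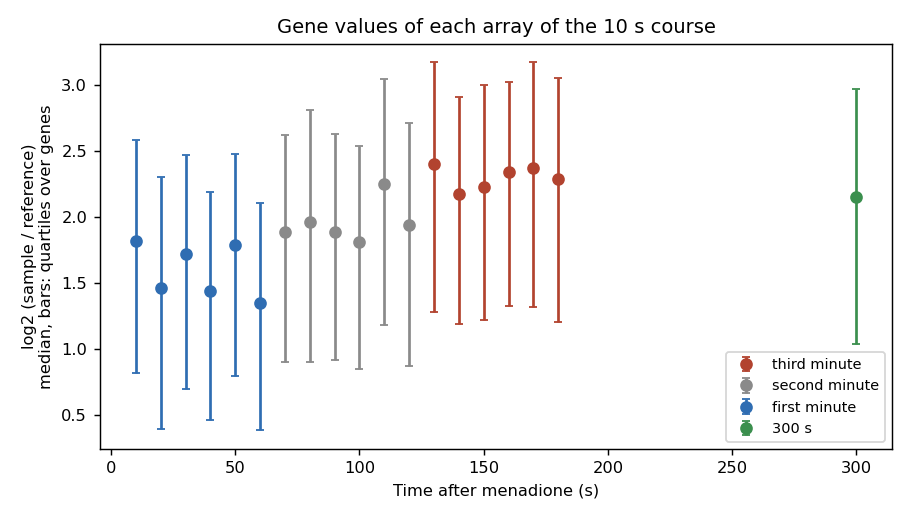
Median log2 ratio of sample to reference over all genes with a value on each array (points; bars are the quartiles over genes) against the time after menadione in seconds. The third minute arrays sit above all of the first minute arrays, and the second minute arrays lie mostly in between.

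Levels across genes correlated about as well between arrays of different minutes as within a minute. The correlation of levels across genes had a median of 0.75 over the 36 pairs of arrays from different minutes (0.62 to 0.83) and of 0.75 over the 30 pairs within a minute (0.62 to 0.82). These are descriptions across genes that share arrays. The labels say that values were normalized to added control RNA. On each array of the third and first minutes, however, 849 to 1204 probe values were log2 of an exact whole number. No scale factor per array could be seen in the values. How much of the difference between the minutes such a factor would carry was not tested.

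Some ratios could be formed from small whole numbers. Values that could be written as a fraction with a denominator of 50 or less made up 39.5 to 41.7% of an array in the third minute and 35.2 to 47.3% in the first minute. The difference between the minutes was 0.63 in the median of 333 genes with no such value, and 0.71 in the median of 394 genes with 9 to 12 such values. Whether it differed between such groups was not tested. The median SD was 0.22 in the third minute and 0.25 in the first minute for the 333 genes, and 0.86 and 0.93 in the same order for the 394 genes. Of these, 84.7% of the 333 genes rose past the test, against 19.5% of the 394 genes.

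**Figure D3:**
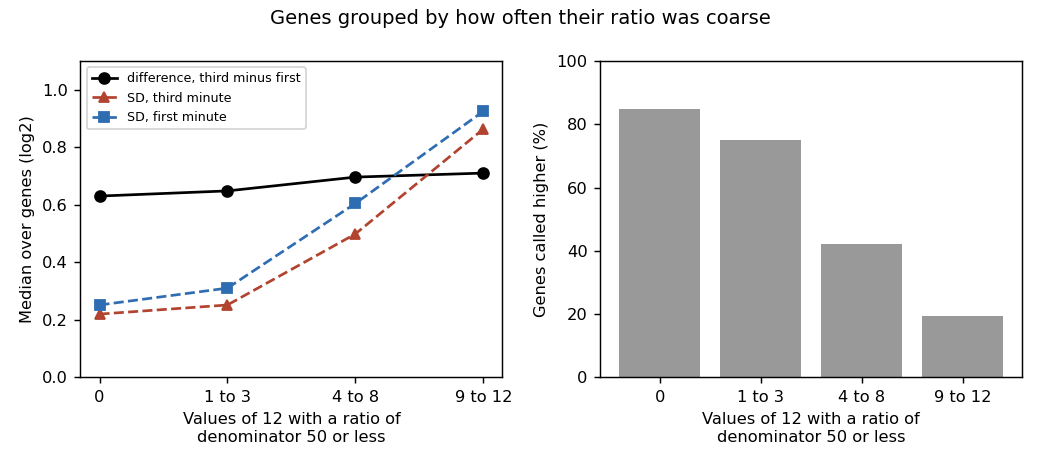
Left, the median difference between the minutes and the median SD within each minute, in log2 units, for genes grouped by how many of their 12 values had a denominator of 50 or less. Right, the percentage of genes that rose. The median difference lies between 0.63 and 0.71 while the SD grows and the percentage falls, to 19.5% in the last group.

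Nearly all genes of the cytosolic ribosome rose. Of 136 cytosolic ribosomal protein genes, 128 rose (94.1%, against 55.8% of all genes) and 0 fell. Only 1 of the 136 had mostly small denominators. Of all genes with 0 small denominators 84.7% rose, and of those with 1 to 3 of them 75.2%. The median difference of the 136 was 0.72, against 0.66 for all genes tested, and 0.01 after centring. The median level of the list ran from 1.23 to 1.56 in the third minute and from 0.41 to 0.90 in the first minute, with 0.95 as the median in the second minute and 1.23 at 300 s. In 94 of the 135 members with complete values the minutes did not overlap, against 29.3% of all genes with complete values. That share was not counted among genes with few small denominators. RPL24B, a protein of the large subunit, had a lowest value of 1.77, a median of 1.86 and a highest of 2.03 in the third minute, against 0.55, 0.93 and 1.14 in the first minute. It rose by 1.01 ± 0.13 (SE; limma adjusted p = 0.0020). RPL38, also of the large subunit, had a median of 3.13 (2.75 to 3.21) in the third minute, against 2.05 (1.74 to 2.62) in the first minute. RPL13B lay low in the list, with a median of 1.01 (0.77 to 1.38) in the third minute and 0.65 (0.58 to 0.86) in the first minute. It rose by only 0.37 ± 0.13 (SE; limma adjusted p = 0.029), its minutes overlapped, and the call was lost without the array at 10, 40, 170 or 180 s (adjusted p = 0.051 to 0.062). Many ribosomal proteins have near-identical paralogs, and the probes may not tell these apart.

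Of translation factors 40 of 43 rose (93.0%, against 55.8% of all genes) and 0 fell, with a median difference of 0.72. After centring the median was 0.02, with 24 members above 0 and 19 below. Only 1 of the 43 had mostly small denominators. Of all genes with 0 such values 84.7% rose, and of those with 1 to 3 such values 75.2%. TIF11, the initiation factor eIF1A, had a median of 3.10 (2.96 to 3.35) in the third minute, against 1.97 (1.54 to 2.27) in the first minute. It rose by 1.19 ± 0.16 (SE; limma adjusted p = 0.0020), and its second minute mean of 2.52 lay between the others. TIF4632, one of the eIF4G scaffolds, rose by 1.39, with only 5 values in the first minute and 8 small denominators. TEF1, the elongation factor that brings aminoacyl-tRNA to the ribosome, had a median of 0.51 (0.29 to 0.77) in the third minute and -0.16 (-0.36 to 0.15) in the first minute, and rose by 0.68, close to the median gene. In the ribosome biogenesis list 61 of 103 genes rose (59.2%, near the 55.8% of all genes), with a median difference of 0.73. NOP7, needed to assemble the large subunit, had a median of 3.65 (3.45 to 4.02) in the third minute, against 2.53 (2.40 to 2.95) in the first minute. NOP13, a nucleolar protein, rose by 1.16. Of RNA polymerase I and III genes 15 of 19 rose (78.9%), with a median difference of 0.81. RPA190, the largest subunit of polymerase I, rose by 0.91, and RPC19, a subunit of both polymerases, by 1.57. The minutes of RPC19 overlapped, and 8 of its values had small denominators. Mitochondrial ribosomal proteins had a median difference of 0.73, close to that of the cytosolic ones, but 30 of 61 rose (49.2%), and 12 of the 61 had mostly small denominators. MRPL17 had a median of 3.19 (1.46 to 3.46, 5 values) in the third minute and 3.45 (2.83 to 4.29) in the first minute, and did not pass the test.

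The protein breakdown genes gave a like picture. Of 35 proteasome genes 33 rose (94.3%, against 55.8% of all genes), 0 fell, and the median difference was 0.78. None of the 35 had mostly small denominators, and of all genes with 0 such values 84.7% rose, and of those with 1 to 3 such values 75.2%. RPN5, of the regulatory lid, had a median of 2.25 (2.00 to 2.41) in the third minute, against 1.33 (0.71 to 1.39) in the first minute. It rose by 1.02 ± 0.15 (SE; limma adjusted p = 0.0020). PRE8, of the core particle, rose by 0.96. Among genes for ubiquitin and its conjugation 20 of 25 rose (80.0%), with a median of 0.75. CUE1, which anchors a conjugating enzyme at the endoplasmic reticulum, rose by 1.04.

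Genes of oxidative stress defence did not stand above the others. Of 40 tested, 23 rose (57.5%, against 55.8% of all genes) and 0 fell. The median difference was 0.63, a little under that of all genes, and -0.08 after centring, with 15 members above 0 and 25 below. In 13 of the 40 the minutes did not overlap, a share near the 29.3% of all genes with complete values. The thioredoxin reductases lay above the median of the list. TRR2, the mitochondrial form, had a median of 2.76 (2.52 to 3.03) in the third minute, against 1.75 (1.36 to 1.94) in the first minute, and rose by 1.06 ± 0.14 (SE; limma adjusted p = 0.0020). TRR1, the cytosolic form, had a median of 2.04 (1.4 to 2.32) in the third minute, against 1.07 (0.64 to 1.39) in the first minute. GSH1, the first enzyme of glutathione synthesis, had a median of 2.90 (2.21 to 3.29) in the third minute, against 1.6 (0.57 to 1.93) in the first minute. All of these had non-overlapping minutes.

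Enzymes that remove peroxide and superoxide, and their partners, are given here for their role. The thioredoxin TRX2 rose by 0.79 and the thioredoxin peroxidase TSA1 by 0.86. Cytochrome c peroxidase, CCP1, rose by 0.73. SOD2, the mitochondrial superoxide dismutase, had a median of 2.67 (2.52 to 2.95) in the third minute, against 2.04 (1.71 to 2.32) in the first minute, and rose by 0.70 ± 0.13 (SE; limma adjusted p = 0.0025). SOD1, the cytosolic dismutase, had a median of 1.05 (0.74 to 1.32) in the third minute and 0.66 (0.43 to 1.08) in the first minute. Its difference of 0.36 ± 0.15 (SE) did not pass the test (limma adjusted p = 0.058), but did without the array at 20 s (adjusted p = 0.024) or 150 s (adjusted p = 0.037). TRX1, the other cytosolic thioredoxin, had a difference of 0.30 ± 0.13 (SE; limma adjusted p = 0.071) and lay at -0.41 after centring. YAP1, the transcription factor of the peroxide response, had a median of 4.57 (3.59 to 5.12) in the third minute and 3.98 (3.00 to 4.32) in the first minute, and did not pass the test. The catalase CTT1 ranged from -0.49 to 4.98 in the third minute and from -2.0 to 3.22 in the first minute, a spread in which no difference could be seen. None of the 4 aryl alcohol dehydrogenases tested, a family known to respond to oxidants, was called, against 55.8% of all genes. Of the 4, 2 had mostly small denominators, and AAD14 passed without the array at 150 s (limma adjusted p = 0.0111).

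**Figure D4:**
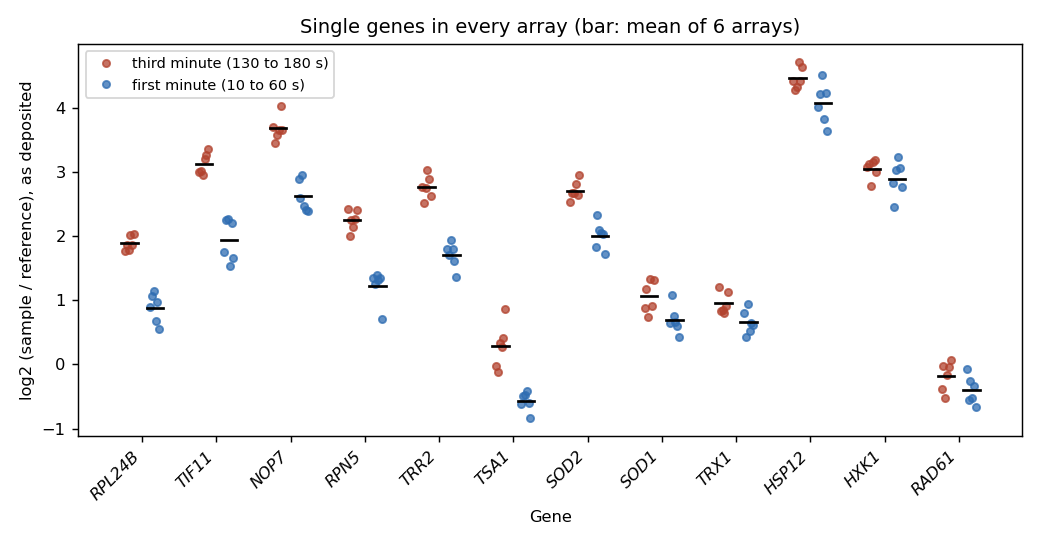
Log2 ratio of sample to reference, as deposited (y axis), of 12 genes (x axis) in each array of the third minute (left of each pair) and of the first minute (right); bars are means of 6 arrays. RPL24B, TIF11, NOP7, RPN5, TRR2, TSA1 and SOD2 have separate minutes, while SOD1, TRX1, HSP12, HXK1 and RAD61 overlap.

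Heat shock proteins and chaperones rose in 31 of 40 cases (77.5%, against 55.8% of all genes), with a median of 0.71, and of 0.007 after centring. Only 1 of the 40 had mostly small denominators. Of all genes with 0 such values 84.7% rose, and of those with 1 to 3 such values 75.2%. CPR6, a co-chaperone of Hsp90, had a median of 1.55 (1.47 to 1.92) in the third minute, against 0.60 (0.17 to 0.84) in the first minute. HSP104, which takes protein aggregates apart, had a median of 0.92 (0.85 to 1.45) in the third minute, against 0.39 (-0.19 to 0.54) in the first minute. HSP26, a small heat shock protein far above the reference throughout, had a median of 5.22 (4.71 to 5.27) in the third minute and 4.57 (4.33 to 4.85) in the first minute. HSP12, a membrane protein of stressed and stationary cells, differed by 0.39 ± 0.16 (SE; limma adjusted p = 0.053). Targets of the general stress factors Msn2 and Msn4 rose in 21 of 36 cases (58.3%, near the 55.8% of all genes; median 0.59). STF2, named for its role with the ATP synthase inhibitor, had a difference of only 0.08. Of 20 markers of stationary phase 16 rose (80.0%) and 0 fell. Their median level ran from 2.60 to 2.89 in the third minute and from 1.96 to 2.21 in the first minute. This does not test the label of the culture, since most genes read above the mixed reference on these arrays, and ribosome biogenesis genes had a higher median level in the third minute (3.02, against 2.68 for the markers). SNZ1, for vitamin B6 synthesis, rose by 0.51. After centring, 17 of the 20 lay below 0, with a list median of -0.12.

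The lists of glucose uptake, glycolysis and gluconeogenesis had the lowest medians. Glycolysis and fermentation had a median difference of 0.49, with 17 of 23 higher (73.9%, against 55.8% of all genes). Hexose transporters had a median of 0.48, with 6 of 14 higher (42.9%). Gluconeogenesis, glyoxylate and acetate genes had a median of 0.54, with 10 of 18 higher (55.6%, near the share of all genes). After centring these medians were -0.21, -0.22 and -0.16 in the same order, and 0 members passed the test. TDH3, the main glyceraldehyde phosphate dehydrogenase, had a median of -1.14 (-1.43 to -0.94) in the third minute, against -1.70 (-2.13 to -1.54) in the first minute. ADH3, a mitochondrial alcohol dehydrogenase, rose by 0.41, a call lost without the array at 60, 130, 170 or 180 s (limma adjusted p = 0.053 to 0.063). HXT7, a high affinity glucose carrier, rose by 0.64, while HXT4 had a median of -0.40 (-2.17 to 0.69) in the third minute and 0.04 (-0.85 to 0.75) in the first minute and did not pass the test. The transporters are close in sequence, and the probes may not tell them apart. ICL1, isocitrate lyase of the glyoxylate cycle, had a median of 5.33 (5.12 to 5.88) in the third minute and 5.08 (4.72 to 5.73) in the first minute, with no call.

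Of nuclear genes for oxidative phosphorylation 30 of 39 rose (76.9%, against 55.8% of all genes, median 0.68). Of tricarboxylic acid cycle genes 14 of 17 rose (82.4%, median 0.66, as for all genes tested). After centring the medians of these lists were -0.03 and -0.04 in the same order. In both lists 0 members had mostly small denominators. Of all genes with 0 such values 84.7% rose, and of those with 1 to 3 such values 75.2%. COX8, of cytochrome c oxidase, did not pass the test (0.23). Only 8 of 18 genes of the mitochondrial genome had enough values, and 4 of them rose (50.0%). Their median of 1.04 was the highest of the lists, but only 4 of the 8 had values in all 12 arrays. OLI1, a ring subunit of the ATP synthase, had a median of 4.07 (3.77 to 4.50) in the third minute, against 3.11 (2.74 to 3.28) in the first minute. AI1, an intron-encoded protein of COX1, rose by 3.14 ± 0.90 (SE; limma adjusted p = 0.015). It had 5 values from 1.17 to 6.07 in the third minute, against 5 from -1.0 to 1.32 in the first minute. Its minutes overlapped, and 8 of its values had small denominators.

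The remaining lists lay between these. Over all 29 lists 704 of 996 genes rose, where 55.8% of all genes tested did, and 0 fell. Whether this share differs among genes with like numbers of small denominators was not tested. List medians ran from 0.48 to 1.04 and, after centring, from -0.22 to 0.34. RAD2, a nuclease of excision repair, had a median of 2.88 (2.37 to 3.74) in the third minute against 0.85 (0.19 to 1.77) in the first minute. It rose by 2.06 ± 0.32 (SE; limma adjusted p = 0.0020), and 6 of its values had small denominators (1 first minute value was missing). NCP1, the reductase that serves sterol synthesis, rose by 1.03, as did TFG1, of the general factor TFIIF. HHO1, the linker histone, rose by 0.96, and MET1, of sulfite reduction, by 1.45. The minutes of MET1 overlapped, and 7 of its values had small denominators. Other members of the remaining lists were also chosen by the lowest p after centring. Of these, SAM3 differed by 0.30, HTA1 by 0.43, ERG7 by 0.23, RPB8 by 0.33, SLT2 by 0.20 and FLO1 by 0.07, without a call. FET5 differed by 0.27 and SOL2 by 0.36, also without a call. EDC1, POP2, CUP2 and TKL2 were lower by sign and were not called. FAT1 rose by 2.12, FAA2 and BAT2 by 0.43 each and ILV6 by 0.37.

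**Figure D5:**
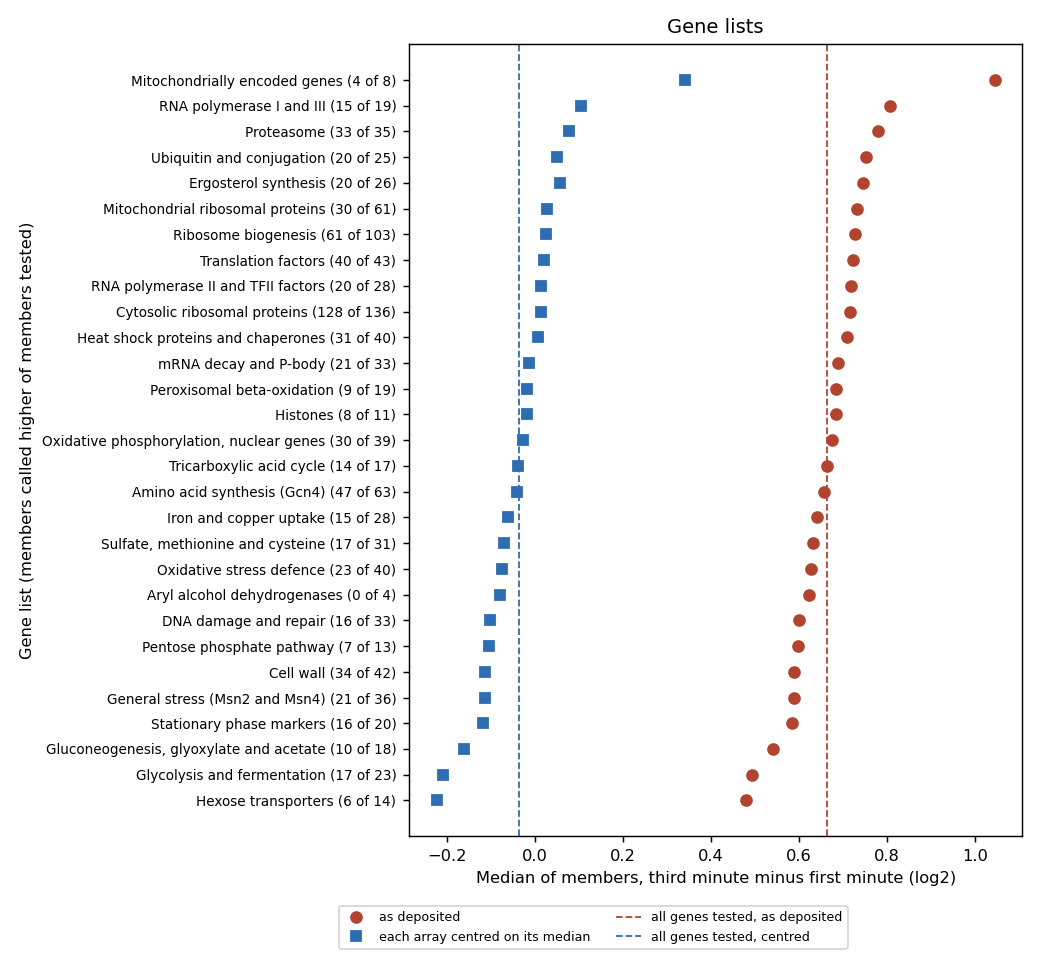
Median difference of the members of each gene list, the third minute minus the first minute, in log2 units, as deposited (circles) and after centring each array (squares); dashed lines are the medians of all genes tested. Labels give members that rose of members tested. All medians as deposited lie between 0.48 and 1.04.

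Among called genes with values in all 12 arrays, the 12 largest rises relative to the array belonged to the genes that follow. CTR9, of the Paf1 complex of transcription elongation, had a median of 2.99 (2.64 to 3.81) in the third minute, against 0.21 (-1.0 to 2.75) in the first minute. It rose by 2.45 ± 0.60 (SE; limma adjusted p = 0.0064). RSE1, a splicing factor, had a median of 2.68 (1.91 to 5.32) in the third minute, against 1.19 (-1.0 to 1.74) in the first minute. RMD5, of the ubiquitin ligase that degrades gluconeogenic enzymes, had a median of 3.19 (2.28 to 3.84) in the third minute, against 1.22 (0.26 to 2.10) in the first minute. PDR12, a transporter of weak acids, had a median of 1.63 (1.32 to 3.81) in the third minute, against 0.21 (-0.13 to 1.00) in the first minute. The other 8 were PRR1, a protein kinase, NSE5 of the Smc5-Smc6 complex, EPT1 of phospholipid synthesis, the Rab protein YPT53, VPH2 of vacuolar ATPase assembly, APS1 of a clathrin adaptor, topoisomerase TOP2 and YPL060C-A. All 12 rose as deposited, by 1.91 to 2.45, and 0 of them did after centring, where the unadjusted p ran from 0.0023 to 0.086. In 3 of the 12 the minutes did not overlap, against 29.3% of all genes with complete values. Each had 4 to 9 small denominators among its 12 values. The second minute mean lay between those of the others in 10 of the 12.

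Few genes went against the shift. DAL2, the allantoicase of nitrogen scavenging, was the only gene that fell, and it is named because of that. It had 0.68 to 1.91 (median 1.45, 4 values) in the third minute, against 1.58 to 3.17 (median 2.18, 6 values) in the first minute, a difference of -0.93 ± 0.35 (SE; limma adjusted p = 0.044), and 9 of its values had small denominators. The call was lost without the array at 10, 20, 30, 50, 130, 140 or 170 s (limma adjusted p = 0.053 to 0.125). Among genes with values in all 12 arrays, which leaves out DAL2, the 12 with the lowest p below 0 after centring had differences from -1.03 to 0.23 as deposited, and 0 of them was called on either scale. HXK1, a hexokinase, had a median of 3.10 (2.78 to 3.18) in the third minute and 2.93 (2.45 to 3.22) in the first minute. HAC1, the transcription factor of the unfolded protein response, had a median of 1.65 (1.22 to 2.10) in the third minute and 1.60 (1.42 to 2.05) in the first minute. OSH7, a lipid transfer protein, had a median of -0.29 (-1.59 to 0.78) in the third minute and 0.99 (-0.26 to 1.47) in the first minute, and RAD61, a cohesin release factor, of -0.10 (-0.52 to 0.08) in the third minute and -0.43 (-0.67 to -0.06) in the first minute. The others were YDL085C-A, FUN19, PRY3, TMC1, the meiotic splicing factor MER1, the cell cycle regulator MSA1, the proteasome shuttle RAD23 and the metal pump PCA1.

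A course sampled every minute held 2 arrays at 3 min and 2 at 1 min. Its array medians were -0.26 and 0.12 at 3 min, against 0.55 and 0.71 at 1 min, a difference of -0.70 (exact two-sided permutation p = 0.33, the smallest that 2 against 2 arrays allow). Of 2848 genes tested in that course, 2625 (92.2%) were lower at 3 min by sign alone, with a median difference of -0.62. None passed the test (limma, smallest adjusted p = 0.092; 258 genes, 9.06%, at an unadjusted p under 0.05), nor after centring (smallest adjusted p = 0.10; 272 genes, 9.55%). With the replicate number of the arrays as a block, 17 genes passed, all lower at 3 min, and 2 after centring. The level of whole arrays went the opposite way to that of the 10 s course, and the difference between the courses was not tested. Arrays of one time could differ as much in the 1 min course. Their medians were 0.27 and 0.25 at 2 min, 0.90 and -0.84 at 4 min, and 0.43 and 0.84 at 5 min.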

How the data were processed

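RNA of menadione-exposed stationary cells was measured against a common reference on 2-colour spotted oligonucleotide arrays. The authors deposited the 10 s course as log2 ratios, and their labels name added exogenous controls as the basis of normalization. For the 1 min course the deposited values are another quantity, linear ratios that can fall below 0 (21049 values at or below 0 were treated as missing), and they were taken to log2 here. The methods of the authors randomised samples of a course for RNA isolation, labelling and hybridization. They do not describe the 10 s course, so whether it was randomised is not stated. Samples were grouped by the times in their labels.

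Of 6979 probes, 5923 had 1 gene name and 1056 none; probes of a gene were averaged (5710 genes, 33 with several probes; 5705 matched RefSeq names). Arrays of the 2 minutes held 4704 to 5280 gene values; their number limits the precision. Genes with at least 80% of the 12 values, and at least 4 in each minute, were fitted with limma 3.58.1 in R 4.3.3 on the log2 scale, as deposited and after centring each array on its median of these genes. Calls needed an adjusted p under 0.05 (Benjamini-Hochberg) and no minimum fold. The 1 min course was fitted as means of each time over 72 arrays. The levels of the 12 arrays correlated positively across genes with those of the 1 min course (0.31 to 0.60), as they would not with the ratio turned round. With arrays centred, deviations from the minute means were not more alike 10 s apart (median r = -0.25) than further apart (-0.21). Deviations from a shared mean correlate negatively by construction, and centring removes the array level. These values therefore cannot show whether the levels of successive arrays were independent. The fit was run on simulated data with independent noise and centred arrays only, so that run does not bear on the counts as deposited.

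The rule for named genes took 12 rises and 12 falls by their size after centring. These came first from called genes with complete values and then by the lowest centred p. Added to them were the 2 members of each list with the lowest centred p, and list members named for their role after their values were seen. The members and the 29 lists were chosen with earlier results of these data known. Alternatives were other filters, moderation, weights, scalings, the slope over 18 arrays, neighbouring times averaged, fold minimums, single probes and each array left out. Leaving out small denominators (fractions found with a tolerance of 1e-06 log2 units) was chosen after seeing the data. Figures were drawn with Matplotlib 3.10.9. Promoter sequences were not used here.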

Additional observations from a re-analysis of the deposited data

Results flagged for a closer look

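The level of whole arrays differed by 0.70 between the third and first minutes of the 10 s course, where all arrays of the third minute were higher, and by -0.70 between 3 and 1 min of the 1 min course, where both 3 min arrays were lower. The same opposite order without overlap was seen in 9 of the genes named, and its share over all genes was not counted. By sign alone, 95.5% of 4462 genes were higher in the third minute and 92.2% of 2848 genes were lower at 3 min. Opposite signs were therefore common and not particular to these genes. RMD5 differed by 1.92 between the minutes and by -1.21 between 3 and 1 min, NOP7 by 1.06 and -0.61, NOP13 by 1.16 and -3.08, TRR2 by 1.06 and -1.16 and CPR6 by 1.08 and -0.71. TSA1 differed by 0.86 and -0.66, GSH1 by 1.33 and -0.97, SNZ1 by 0.51 and -0.61 and HXT7 by 0.64 and -0.85, in the same order of courses. The difference between the courses was not tested, and the arrays at 4 min of the 1 min course had medians as far apart as 0.90 and -0.84.

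One array lay far from the other arrays of its minute in 17 of 196 groups of values checked, where chance gives about 1 in 20. In the third minute the lowest values that stood apart were PRR1 at -0.58 (140 s; next 2.83), APS1 at 0.53 (150 s; next 2.67), MSA1 at 2.41 (150 s), PCA1 at 1.08 (180 s), MRPL17 at 1.46 (130 s), MRPS12 at 1.39 (180 s), KGD1 at 0.83 (170 s) and RPL38 at 2.75 (140 s). The highest were RSE1 at 5.32 and RPA190 at 2.43 (both 130 s) and EDC1 at 3.94 (150 s). In the first minute RPN5 stood low at 0.71 (60 s), GSH1 at 0.57 (50 s) and CTT1 at -2.0 (20 s; next 2.00), and MER1 stood high at 1.87 (30 s), AAD14 at 2.89 (50 s) and HSP10 at 2.09 (30 s). These fall on 9 different arrays, and their cause was not tested.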

How the results depend on the processing

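The count of genes called as deposited (2489, both directions) was within 1.5 times of itself under 21 alternatives, and ran from 2137 to 2493 when each array was left out in turn. It was 0 with centred arrays and 0 with quantile normalization, 432 at a minimum of 2-fold, and 1250 of 1435 genes where values with small denominators were left out, which leaves fewer genes. With arrays centred, the count was 0 in the main fit and in all 25 alternatives (with single arrays left out, 281 to 342 genes had an unadjusted p under 0.05). The difference of array medians was 0.69 over genes with complete values and 0.65 to 0.75 with single arrays left out (exact permutation p = 0.0043, the smallest that design allows). Over the lists the count was 704 in the main fit, 0 centred, 0 with quantile normalization and 650 for the slope.

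In the 1 min course replicate numbers 1 and 2 run through all times, and the 3 and 1 min arrays form 2 such pairs, whose deviations correlated at 0.47; the labels do not say what the number marks. The replicate block gave 17 calls, all lower, and 2 calls with centring as well; leaving out a replicate number gave 0 to 43, the 43 without replicate 2, all lower.

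Among named genes called as deposited, 12 changed sign without a call after centring: RPL13B -0.33, IDP1 -0.33, ADH3 -0.29, FAA2 -0.27, BAT2 -0.27, ILV6 -0.34, SOD2 -0.0029, HSP26 -0.16, TEF1 -0.025, TDH3 -0.10, SNZ1 -0.19 and HXT7 -0.059. Of these, 9 did so with quantile normalization: RPL13B -0.31, IDP1 -0.33, ADH3 -0.29, FAA2 -0.27, BAT2 -0.19, ILV6 -0.29, HSP26 -0.040, SNZ1 -0.18 and HXT7 -0.042. Leaving out single arrays also moved single calls as deposited. Calls were lost without the array at 20, 40, 60, 130 or 160 s for APS1, at 130, 170 or 180 s for PRR1 and at 20, 40 or 130 s for YPL060C-A, and, among the genes with changed sign above, for 8 arrays each in FAA2 and IDP1 and 9 in ILV6 (adjusted p up to 0.097). Calls were gained without 30 s for HSP12 (adjusted p = 0.022) and TRX1 (0.042), 160 s for YAP1 (0.029), 130 s for FUN19 (0.022, lower), 20 s for PRY3 (0.035, lower), 50 or 130 s for YDL085C-A (0.046 and 0.049, lower) and 20, 150 or 160 s for OSH7 (0.031 to 0.035, lower). AAD14 gained one without 150 s (0.0111), MRPS12 without 180 s (0.0198), KGD1 without 170 s (0.0385) and EDC1, lower, without 60 s (0.0159). Both scalings remove a shift common to an array by construction. Signal over background was not among the values used, and genes with small denominators are measured least precisely.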
